A study of Mus musculus with 4 samples.

Results

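The expression of 10 genes of epithelial cell junctions was followed on 4 arrays: the claudin genes Cldn3, Cldn4, Cldn6 and Cldn7, the occludin gene Ocln, and the desmosome genes Dsp, Dsg2, Dsc2, Jup and Pkp2. All probes that were not controls and carried one of these gene names were taken, which gave 16 probes and 25 spots per array, out of 55675 probes. They are 10 of 22294 gene symbols, and the arrays also carry transcripts with no symbol. The genes were selected on measured values: differences on these same arrays, such as those of Cldn3 and Dsp between AKT-activated and AKT-nonactivated cells, were known when the set was drawn up. The values below therefore describe the arrays, and nothing was tested.

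The question behind the arrays was how active AKT, a kinase of growth and survival signalling, alters the reprogramming of fibroblasts to induced pluripotent stem cells. All 4 groups were mouse embryonic fibroblasts from several male E13.5 embryos, mixed in culture, that carried a transgene for EGFP driven by the Oct4 promoter and enhancer (OE-MEFs). All of them received retroviruses for Oct4, Sox2 and Klf4 (OSK). The OSKA groups also received AKT-MER, a myristoylated AKT joined to a modified estrogen receptor and carried by a retrovirus, which turns active when the ligand 4-hydroxytamoxifen (4OHT) is present. From 3 days postinfection (dpi) the cells were given 4OHT or its ethanol vehicle, and RNA was sampled at 8 dpi. The groups were OSK cells on vehicle, OSK cells on 4OHT, and OSKA cells that were either on vehicle (AKT-nonactivated cells) or on 4OHT (AKT-activated cells). Each group had 1 array. The groups had no replicates, so p-values are not reported, and the differences below cannot be set against the spread between cultures. No sorting of infected cells is described for the arrays, and retroviral infection does not reach each cell alike. In such bulk RNA, fewer cells of a type and less RNA per cell cannot be told apart.

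Claudins are the membrane proteins that form the strands of tight junctions, which close the space between neighbouring epithelial cells, and occludin is a further membrane protein of these strands. Desmosomes are spot-like junctions in which desmosomal cadherins (desmogleins and desmocollins) reach across to the next cell, while plakoglobin and plakophilins link their tails to desmoplakin and so to keratin filaments. Both kinds of junction are typical of epithelia. Fibroblasts largely lack them, and cells on the way from a fibroblast to a pluripotent cell pass through a change from mesenchymal to epithelial character.

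The RefSeq table held promoter windows for Cldn3, Cldn4, Cldn6, Cldn7, Ocln, Dsp and Jup, which is 7 members and 9 windows of 300 bases each, from 250 bases before the annotated start to 50 after it (build GRCm38.p6). Windows for Pkp2, Dsg2 and Dsc2 were not in the table. The letters CAGGTG, or CACCTG on the other strand, which spell the E-box bound by repressors of the SNAIL and ZEB type, stood in a window of 6 members, namely all but Jup. The same letters were found in 20.2% of all 32851 windows (6098 of 27025 genes). Stretches from 120 bases before the start to 30 bases after it are shown for Cldn3 and Dsp, which had the largest differences among the members measured on both OSKA arrays, for Cldn4, the neighbouring gene of Cldn3 on the chromosome, and for Jup, which lay lowest in AKT-activated cells. Capitals mark CAGGTG or CACCTG.
Cldn3, chr5:134986094-134986243, plus strand: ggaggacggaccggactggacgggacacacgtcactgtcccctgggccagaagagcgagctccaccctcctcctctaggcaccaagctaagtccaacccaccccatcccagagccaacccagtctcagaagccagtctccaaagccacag
Cldn4, chr5:134946905-134947054, minus strand: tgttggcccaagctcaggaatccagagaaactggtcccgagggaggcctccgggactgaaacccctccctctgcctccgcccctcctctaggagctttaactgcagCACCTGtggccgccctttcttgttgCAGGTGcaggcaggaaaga
Dsp, chr13:38151174-38151323, plus strand: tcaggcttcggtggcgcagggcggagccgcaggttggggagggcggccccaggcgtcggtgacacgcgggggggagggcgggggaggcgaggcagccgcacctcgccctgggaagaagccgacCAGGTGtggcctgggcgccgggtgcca
Jup, chr11:100397761-100397910, minus strand: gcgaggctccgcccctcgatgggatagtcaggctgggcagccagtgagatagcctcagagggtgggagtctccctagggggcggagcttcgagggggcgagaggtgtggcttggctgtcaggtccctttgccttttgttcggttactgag
With the first transcribed base counted as 1, the match began at position 4 in Dsp, at positions −14 and 12 in Cldn4, and at position 32 in Cldn3, just past the stretch shown. The downstream of the 2 Cldn7 starts had matches at positions −97 and −57. The other motifs searched on both strands, AACCGGTT of the Grainyhead-like factors, the octamer ATTTGCAT and the CACCC-box CCACACCC, were present in 0 member windows, against 0.146%, 1.74% and 3.56% of all windows. A match is a run of letters, and factor binding was not measured.

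A level is the log2 intensity of a probe minus the 75th percentile of its array, and a probe was counted as measured where the scanner software marked it well above background. Values of probes that were not so marked are near the noise of the scan, often replaced by a surrogate, and have no order. By the brightest probe of each gene, 5 members were measured in OSK cells on vehicle, and 6 on each of the other arrays. Cldn3, Cldn7, Dsp and Pkp2 were measured on all 4 arrays. Cldn4, Jup and Dsc2 were measured on some arrays, and Cldn6, Ocln and Dsg2 on none. The 75th percentile of intensity ranged from 377 to 462 between arrays, 52.4% to 55.4% of the 59305 spots that were not controls were well above background, and the lowest level so marked ranged from −4.90 to −4.54. All 10 fibroblast markers examined, among them Col1a1, Dcn and Prrx1, were measured on each array, with summed levels of 10.03, 10.09, 10.28 and 10.48 in OSK cells on vehicle, OSK cells on 4OHT, AKT-nonactivated and AKT-activated cells. With 4OHT in OSKA cells 7 of the 10 were higher, among them Lum (1.13), and their part in the members' values was not tested. Nanog, a pluripotency gene, lay between −0.50 and 0.03.

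**Figure D1:**
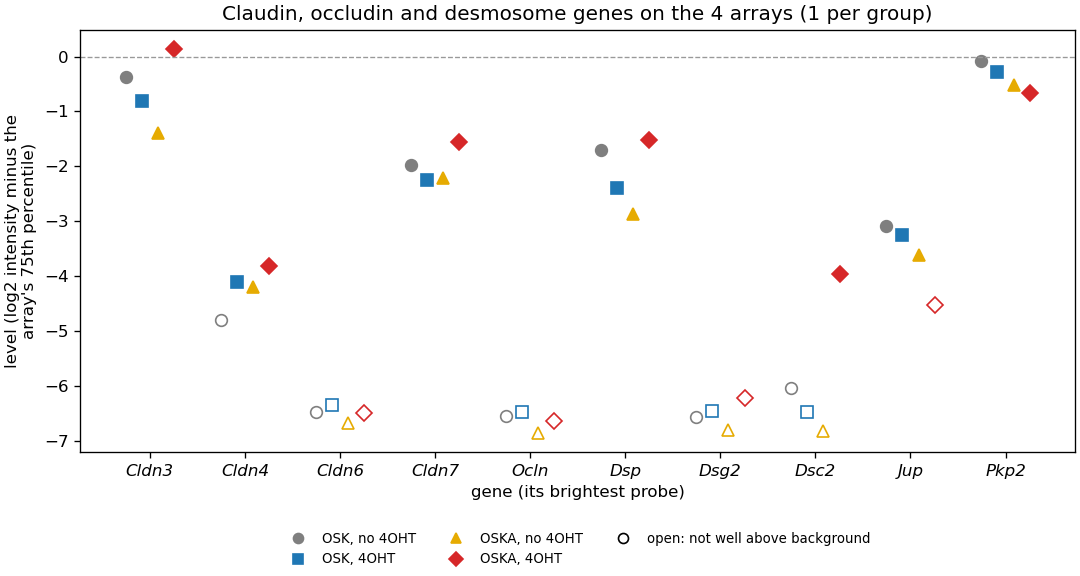
Level of the brightest probe of each of the 10 members on each of the 4 arrays (y axis, log2 intensity minus the 75th percentile of the array, 1 point per array). Filled points were well above background and open points were not. For Cldn3, Cldn7 and Dsp the highest point is that of AKT-activated cells, though for Cldn7 and Dsp this rank depends on the scaling. Cldn6, Ocln and Dsg2 have open points only.

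Among the claudins, Cldn3, a barrier-forming claudin of many epithelia, gave intensities of 355 in OSK cells on vehicle, 214 in OSK cells on 4OHT, 154 in AKT-nonactivated cells and 421 in AKT-activated cells. These correspond to levels of −0.38, −0.81, −1.39 and 0.13. The AKT-activated array was the highest of the 4 and the AKT-nonactivated array the lowest. With 4OHT, Cldn3 was 2.87-fold higher in OSKA cells (log2 difference 1.52, with an error of 0.21 from the error model of the scanner software) and lower in OSK cells (log2 difference −0.43). Without 4OHT, Cldn3 was 2.01-fold lower in OSKA than in OSK cells, at the edge of the 2-fold threshold, and with 4OHT it was 1.93-fold higher. The software error covers the measurement of 1 spot on 1 array and not the variation between cultures. The Cldn3 probe lies on chromosome 5 from 135463284 to 135463342 in NCBI37 (mm9), the build of the array files, on the plus strand.

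Cldn7, a claudin found along the sides of epithelial cells, followed the same order except that its lowest arrays changed places. Its intensities were 118, 78.8, 86.6 and 131 in the order OSK on vehicle, OSK on 4OHT, AKT-nonactivated and AKT-activated, and its levels were −1.97, −2.26, −2.22 and −1.55. The values of OSK cells on 4OHT and AKT-nonactivated cells differed by less than the software error of a difference, which was 0.22 for Cldn7. The 4OHT difference was 0.66 in OSKA cells, or 1.58-fold, and −0.29 in OSK cells. The AKT-MER difference was 0.70 with 4OHT and −0.25 without it. The second Cldn7 probe, which spans positions −151 to −92 from the downstream Cldn7 start, was measured on none of the arrays.

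Cldn4, whose gene adjoins Cldn3 on chromosome 5, is a claudin of many simple epithelia. Its intensities were close to the lowest that the arrays resolve: 16.7 in OSK cells on vehicle, which was not well above background, and 21.9, 22.0 and 27.2 on the other arrays, at levels of −4.10, −4.19 and −3.82. The highest value was again that of AKT-activated cells, but the 4OHT difference in OSKA cells of 0.38 was about as large as its software error of 0.35. Cldn4 was at least 1.48-fold higher with 4OHT in OSK cells and at least 1.39-fold higher in AKT-nonactivated cells than in OSK cells on vehicle, both bounds set by the lowest level that was well above background on the dim array. On the log2 scale these bounds were 0.56 and 0.47. They fell to 0.25 and 0.03 with spike-in scaling, and to 0.15 and 0.13 with normexp correction and quantile normalization. A second Cldn4 probe, at 135421347 to 135421406 on chromosome 5 (NCBI37), was measured on none of the arrays. The probe that was measured is shown with the coordinates of the array files, since the Cldn4 values rest on it alone.
Cldn4, chr5:135422135-135422194, minus strand: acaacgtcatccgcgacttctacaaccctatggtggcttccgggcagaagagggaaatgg

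Cldn6, a claudin of early embryonic epithelia, and Ocln, the gene of occludin, gave no measurable signal. The single Cldn6 probe lay at intensities of 3.92 to 5.20 and the brighter of the 2 Ocln probes at 3.48 to 4.95, and none of these was well above background. Cldn6 and Ocln could thus not be compared between groups.

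Dsp, the gene of desmoplakin, which ties the desmosome to keratin filaments, was the member with the most repeat spots. Its brightest probe was spotted 10 times on each array. The median intensity of these spots was 145.7 in OSK cells on vehicle (range 120.5 to 159), 73.3 in OSK cells on 4OHT (57.0 to 82.1), 55.4 in AKT-nonactivated cells (50.7 to 57.8) and 131 in AKT-activated cells (124.6 to 143, over 9 spots after 1 marked spot was left out). The mean levels with the SD among spots were −1.71 ± 0.12, −2.40 ± 0.16, −2.88 ± 0.06 and −1.52 ± 0.08 in the same order. In scaled levels, the spots of OSK cells on 4OHT and of AKT-nonactivated cells lay apart from each other and from those of the other arrays, while the spots of OSK cells on vehicle and AKT-activated cells overlapped. In unscaled intensity the spots of OSK cells on 4OHT and AKT-nonactivated cells overlapped as well. Spots of 1 array are repeats of 1 hybridisation and not replicates of a condition.

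**Figure D2:**
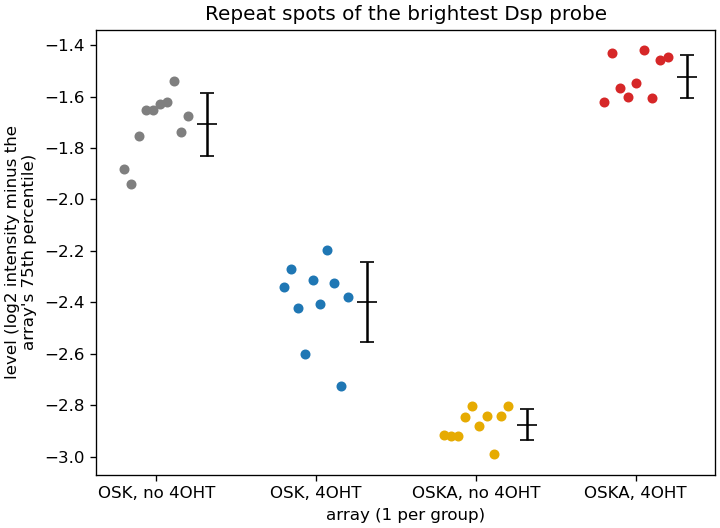
Level of each repeat spot of the brightest Dsp probe (points; y axis, log2 intensity minus the 75th percentile of the array) on the 4 arrays, with the mean and SD among spots in black. On this scale the spots lie lowest in AKT-nonactivated cells (−2.99 to −2.80) and highest in AKT-activated cells (−1.62 to −1.42). The latter overlap those of OSK cells on vehicle (−1.94 to −1.54), which have the higher median in unscaled intensity.

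Dsp was 2.56-fold higher with 4OHT in OSKA cells (log2 difference 1.35, software error 0.23) and 1.61-fold lower with 4OHT in OSK cells (log2 difference −0.69). It was 2.25-fold lower in OSKA than in OSK cells on vehicle and 1.84-fold higher with 4OHT. With normexp background correction, which adds an offset of 50 to each intensity, the 4OHT difference of Dsp was 0.78 in OSKA cells, no longer 2-fold, and −0.36 in OSK cells. With spike-in scaling it was just past 2-fold lower in OSK cells. A second Dsp probe was measured on none of the arrays, with intensities of 4.23 to 7.85. The measured probe lies on chromosome 13 from 38290121 to 38290180 (NCBI37). The dim probe, whose 60 bases span 1100 bases of the genome, is shown because both carry the name Dsp and differed in whether they gave a signal.
Dsp, chr13:38285480-38286579, plus strand: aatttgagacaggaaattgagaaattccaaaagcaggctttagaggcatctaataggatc

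The genes of the armadillo proteins of the desmosome did not share the array order of Dsp. Jup, the gene of plakoglobin, which is shared by desmosomes and adherens junctions, gave intensities of 54.1, 39.5 and 32.8 in OSK cells on vehicle, OSK cells on 4OHT and AKT-nonactivated cells (levels −3.09, −3.25 and −3.62), and of 16.6 in AKT-activated cells, where it was not well above background. AKT-activated cells thus had the lowest Jup level, where they had the highest scaled level of Cldn3, Cldn4, Cldn7 and Dsp. For Dsp and Cldn7 that rank depends on the scaling. Taken against its own dim value, Jup was 2.42-fold lower in OSKA than in OSK cells on 4OHT. With 4OHT it was 1.88-fold lower in OSKA cells on the same terms. These folds are not lower bounds and may be smaller. In OSK cells the 4OHT difference was −0.16 with a software error of 0.28, and it came to 0.01 with normexp background correction. The normexp values of the Jup differences taken against the dim value were −0.35 and −0.17. The Jup values rest on 1 probe.
Jup, chr11:100238038-100238097, minus strand: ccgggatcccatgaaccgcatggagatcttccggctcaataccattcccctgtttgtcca

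Pkp2, the gene of plakophilin 2, the plakophilin of simple epithelia and of heart muscle, was measured on all 4 arrays at intensities of 437, 309, 281 and 241 (levels −0.08, −0.29, −0.52 and −0.67). It was highest in OSK cells on vehicle and lowest in AKT-activated cells. Its 4OHT difference was −0.21 in OSK cells and −0.15 in OSKA cells, each no larger than the software error of 0.21, and its AKT-MER difference was −0.44 without and −0.38 with 4OHT. With spike-in scaling the 4OHT difference in OSK cells was −0.52, beyond that error, and the AKT-MER difference without 4OHT was −0.88. Of the 9 heart muscle markers examined, Tnnt2, Tnni3 and Nppa were measured on all 4 arrays and 3 to 5 on each, while Actc1, Myl7, Nkx2-5 and Ryr2 were measured on none. The summed level of the heart muscle list ranged from −0.18 in AKT-activated cells to 0.43 in OSK cells on 4OHT. Tnnt2, the gene of cardiac troponin T, lay at −0.45, −0.55, −1.26 and −2.06 and so stood in the same array order as Pkp2, and all 4 heart muscle markers measured on both OSKA arrays were lower with 4OHT (median −0.51). Their part in the Pkp2 values was not tested.

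The desmosomal cadherins among the members, Dsc2 and Dsg2, were at or below what the arrays resolved. Dsc2, the most widely expressed desmocollin, had intensities of 7.04, 4.22 and 3.55 in OSK cells on vehicle, OSK cells on 4OHT and AKT-nonactivated cells, none of them well above background, and 24.7 in AKT-activated cells (level −3.95), the one array that measured it. Dsc2 was therefore at least 1.93-fold higher with 4OHT in OSKA cells, and at least 0.59 higher on the log2 scale than OSK cells on 4OHT. Taken at face value with no filter on dim probes, these differences would be 2.87 and 2.52 on the log2 scale, and with normexp correction and quantile normalization the first bound was 0.24. Dsg2, the widely expressed desmoglein, had 3 probes, and all of them lay at intensities of 2.96 to 5.13, not well above background on any array. Dsc2 lies between Dsc3 and Dsc1 in the genome, and Dsg2 next to Dsg3. Of these neighbours, Dsg3, Dsc3 and Dsc1 were likewise not well above background on any array by their brightest probes. Dsg1c, another desmoglein, was measured on all 4 arrays, at −2.17, −2.23, −2.97 and −3.16 in OSK cells on vehicle, OSK cells on 4OHT, AKT-nonactivated and AKT-activated cells.

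**Figure D3:**
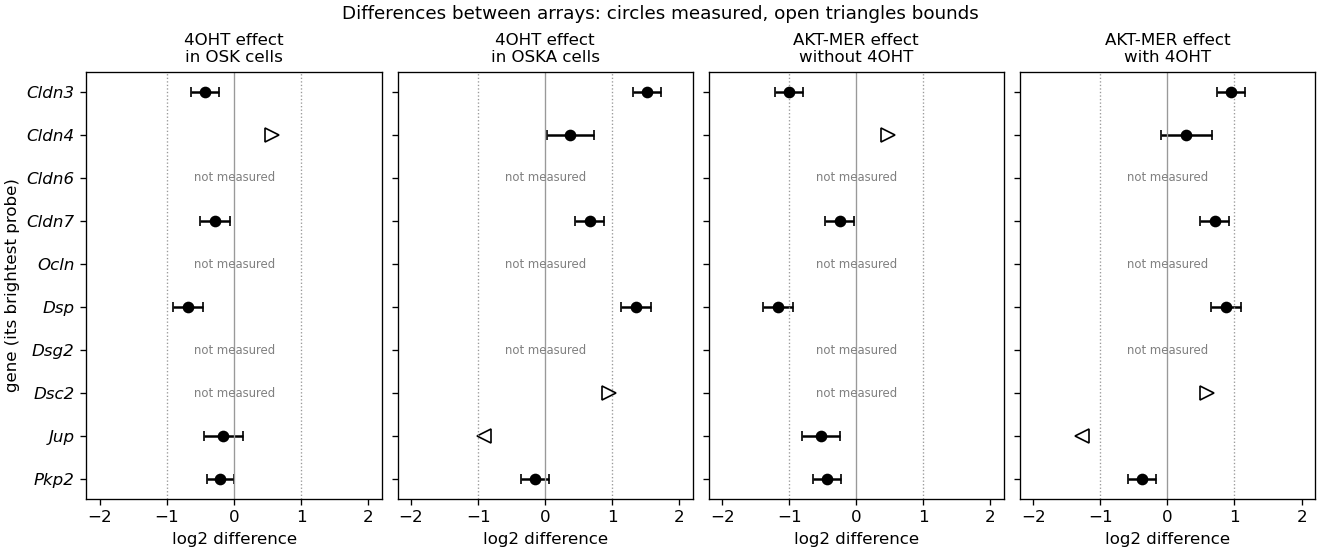
The 4 differences between arrays (x axis, log2) for the brightest probe of each of the 10 members. Circles with bars are measured differences with the software error, and dotted lines mark 2-fold. Open triangles are bounds, or for Jup differences from its own dim value. Cldn3, Cldn7 and Dsp lie left of 0 for 4OHT in OSK cells and right of 0 for 4OHT in OSKA cells, Jup lies left of 0 in all 4 panels (at 0.01 for 4OHT in OSK cells under normexp correction), and Cldn6, Ocln and Dsg2 were not measured.

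The 4 comparisons share arrays, each array entering 2 of them, so they are not independent of each other. Between AKT-activated and AKT-nonactivated cells (4OHT in OSKA cells), 2 of the 7 members with a value or bound were at least 2-fold higher (Cldn3 and Dsp) and 0 at least 2-fold lower. Over all 21997 genes with a value or bound, 2.87% were higher by 2-fold or more and 1.59% lower by as much. The selection of the members used this comparison, so nothing is read from that count. Cldn3 ranked 149th and Dsp 209th from the top of 20299 genes measured on both arrays, Cldn7 839th and Cldn4 2004th, and Pkp2 13758th. The median over the 5 members measured was 0.66, against −0.03 over all genes.

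For 4OHT in OSK cells, which have no AKT-MER, 0 of 6 members were higher and 0 lower by 2-fold or more, where 1.25% and 0.987% of all genes were. The 5 members measured on both arrays were lower, except Jup (0.01) under normexp correction, with a median of −0.29 against −0.00 over all genes, while Cldn4 was higher as a bound. In the AKT-MER effect without 4OHT, 0 of 6 members were at least 2-fold higher (1.68% of all genes) and 2 at least 2-fold lower, namely Cldn3 and Dsp (1.91% of all genes). With normexp correction neither was 2-fold lower, at −0.81 for Cldn3 and −0.64 for Dsp. The same 5 members were lower there too, with a median of −0.52 against −0.02, and Cldn4 was again higher as a bound. In the AKT-MER effect with 4OHT, 0 of 7 members were at least 2-fold higher (2.73% of all genes) and 1 at least 2-fold lower (1.94% of all genes). This was Jup, taken against its own dim value. The median of the 5 measured members was 0.70 against −0.05, and Pkp2 was the 1 of them that was lower. Each AKT-MER comparison shares an OSKA array with the comparison used in the selection, so nothing is read from these counts and medians.

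Cldn3, Cldn7 and Dsp thus had 4OHT differences of opposite sign in OSKA and OSK cells. The 4OHT difference in OSKA cells minus that in OSK cells was 1.95 for Cldn3, 0.95 for Cldn7 and 2.04 for Dsp, with software errors of 0.29 to 0.32, and 0.06 for Pkp2. The difference in OSKA cells, which makes up much of these sizes, was among the values known when the members were selected, so they are given as a description. In scaled levels, OSK cells on vehicle were second only to AKT-activated cells for Cldn3, Cldn7 and Dsp, at 0.52, 0.41 and 0.19 below them (log2). The sizes of these gaps, and for Cldn7 and Dsp the rank itself, depend on the scaling. With spike-in scaling, Dsp was highest in OSK cells on vehicle, and Cldn7 was about level on the same arrays. The median unscaled intensity of the Dsp spots was also higher in OSK cells on vehicle (145.7) than in AKT-activated cells (131).

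The genes whose levels over the 4 arrays, each taken about its own mean, lay nearest to those of Cldn3 among the 14276 other genes that have a symbol and were measured on all arrays were Alpl (root mean square distance 0.01), which encodes tissue-nonspecific alkaline phosphatase, Vsnl1 (0.05) and Dmrtc2 (0.07). Within that set, Dsp stood 16th from Cldn3 (distance 0.12) and Cldn7 stood 266th. The genes nearest to Dsp were Rnase1 (0.04), Cda (0.05) and Lgi3 (0.07), with Cldn3 6th. These distances rest on 4 arrays. The differences of Cldn3 and Dsp between the OSKA arrays were known at selection and enter the distance, so nothing is read from their closeness.

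**Figure D4:**
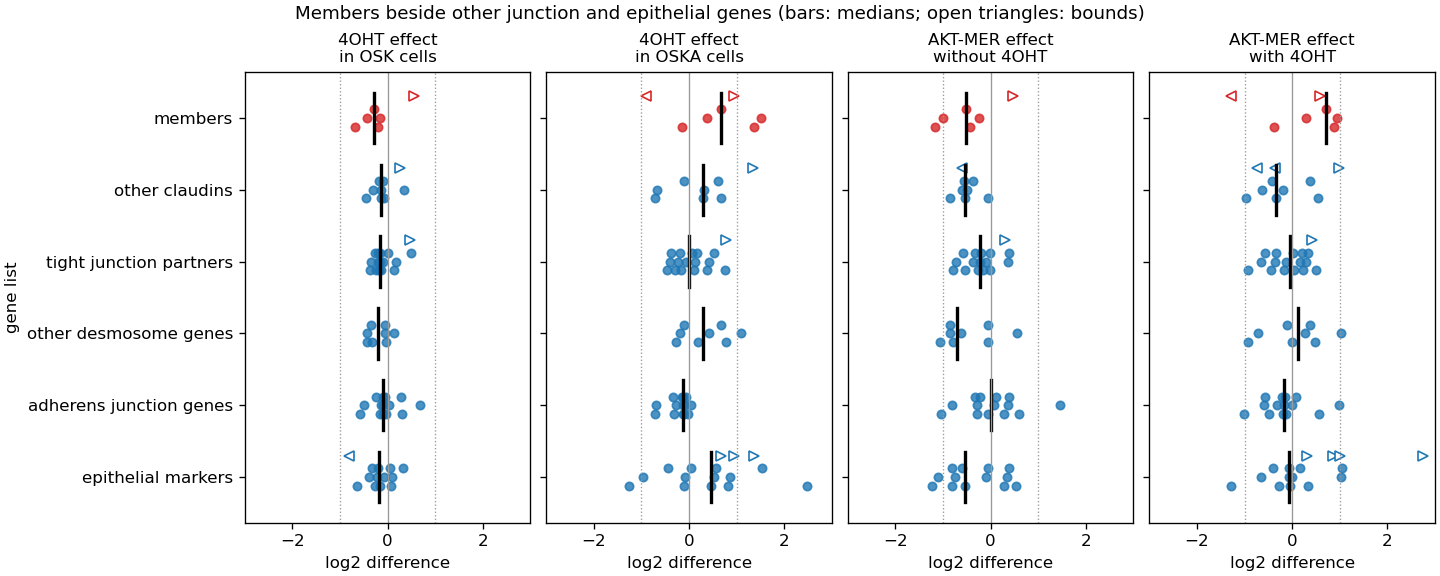
The 4 differences between arrays (x axis, log2) for the members and for 5 lists of other junction and epithelial genes, 1 point per gene measured on both arrays, with open triangles for bounds and black bars for medians. For 4OHT in OSKA cells the medians of the members (0.66), epithelial markers (0.46), other claudins (0.30) and other desmosome genes (0.29) lie right of 0, and those of the adherens junction genes (−0.13) and tight junction partners (−0.00) do not.

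Of 19 other claudin genes, 10 were measured on at least 1 array. Between AKT-activated and AKT-nonactivated cells, 1 of the 8 with a value or bound was at least 2-fold higher, Cldn14, which was at least 2.55-fold higher, and 0 were at least 2-fold lower. Cldn11, a claudin of myelin and Sertoli cells, and Cldn15, an intestinal claudin, had the same signs as Cldn3, at 0.68 and 0.61 with 4OHT in OSKA cells and −0.45 and −0.31 in OSK cells. Cldn1, a claudin of the epidermis, was lower with 4OHT in both, at −0.67 and −0.19, as was Cldn20, at −0.71 and −0.13. Of the 7 other claudins measured on both OSKA arrays, 4 were higher with 4OHT and 3 lower. The other claudins had a median of −0.13 for 4OHT in OSK cells, −0.54 for AKT-MER without 4OHT and −0.34 for AKT-MER with 4OHT.

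Of 20 cytoplasmic and further membrane partners of tight junctions on the arrays, 17 were measured on at least 1, and 0 were at least 2-fold higher or lower in any of the 4 comparisons. Their medians were −0.15, −0.00, −0.22 and −0.05 for 4OHT in OSK cells, 4OHT in OSKA cells, AKT-MER without 4OHT and AKT-MER with 4OHT. Tjp1, the gene of the scaffold ZO-1, was −0.40 with 4OHT in OSKA cells, and Lsr, a gene of tricellular junctions, was 0.76. Marveld2, which adjoins Ocln in the genome and encodes tricellulin, was measured on none of the arrays.

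Among 14 other desmosome genes, 8 were measured on all 4 arrays. Evpl, the gene of envoplakin, a plakin of the same family as desmoplakin, was 1.10 higher with 4OHT in OSKA cells and −1.06 for AKT-MER without 4OHT, and −0.43 with 4OHT in OSK cells, the same signs as Dsp. Perp, a desmosome-associated membrane protein, and Pkp1, a plakophilin of stratified epithelia, were 0.68 and 0.78 in OSKA cells and −0.33 and −0.35 in OSK cells. Pkp3 and Pkp4 lay between −0.11 and 0.18 in all 4 comparisons, and Ppl, the gene of periplakin, was −0.27 with 4OHT in OSKA cells. Cdsn, the gene of corneodesmosin, was 1.02 for AKT-MER with 4OHT. The list's medians were −0.19, 0.29, −0.71 and 0.13 in the order given for the tight junction partners.

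Of 15 adherens junction genes, 14 were measured on all 4 arrays, and 0 differed by 2-fold or more with 4OHT in either OSK or OSKA cells. Cdh1, the gene of E-cadherin, had levels of −0.81, −1.40, −1.86 and −1.99 in OSK cells on vehicle, OSK cells on 4OHT, AKT-nonactivated cells and AKT-activated cells. Cdh1 was thus lowest in AKT-activated cells, where the scaled levels of Cldn3 and Dsp were highest, and its 4OHT difference in OSKA cells was −0.14. The rank of Dsp there depends on the scaling. Without 4OHT, Cdh1 was −1.05 and Cdh3, the gene of P-cadherin, 1.46 in OSKA relative to OSK cells. Ctnnd2, a catenin mostly of neurons, was −1.01 for AKT-MER with 4OHT, and its second probe −1.05. The list's medians were −0.09, −0.13, 0.01 and −0.18.

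Of 20 epithelial markers, 16 had a value or bound for 4OHT in OSKA cells, of which 3 were higher by 2-fold or more and 1 lower. Grhl3 and Grhl1, Grainyhead-like transcription factors of surface epithelia, were 2.48 and 1.53 higher, and Elf3, an epithelial ETS factor, was at least 2.59-fold higher. Grhl3 in AKT-activated cells was also at least 6.69-fold above OSK cells on 4OHT. Esrp1, an epithelial splicing factor, was −1.27 with 4OHT in OSKA cells by the probe that was measured. Signals near background limit these values too. Grhl3 and Grhl1 lay at −4.28 and −3.78 in AKT-nonactivated cells, and Esrp1 at −4.60 in AKT-activated cells. Elf3 was measured in AKT-activated cells only. Epcam, an epithelial adhesion molecule, was −0.45, Krt19 was −0.96, and Krt8, like Krt19 a keratin of simple epithelia, was 0.56. The summed level of the list was highest in OSK cells on vehicle (4.51), 4.17 in AKT-nonactivated cells and lowest in AKT-activated cells (4.00). Krt19 (3.44, 3.17, 2.84 and 1.88) weighed most in that sum on all arrays but the last, while 8 of the 13 markers measured on both OSKA arrays were higher with 4OHT. Without 4OHT, Krt8 and Spint1 were −1.23 and −1.10 in OSKA relative to OSK cells, and their second probes gave −1.33 and −1.13. The second Spint1 probe was 1.05 with 4OHT in OSKA cells, where the brighter one was 0.46. For AKT-MER with 4OHT, 4 of the 16 with a value or bound were higher by 2-fold or more, namely Grhl3, Krt18 (1.06), Grhl1 (1.02) and Elf3 (at least 2.02-fold), and 1 lower, Krt19 (−1.29). The list's medians were −0.18, 0.46, −0.54 and −0.06.

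Markers of other cell types were read beside the members. Of 8 markers of stratified keratinocytes, 4 were measured on each of the arrays except that of AKT-activated cells, which had 5, and the summed level of the list, most of it from Trp63 (2.92 to 3.07), ranged from 3.18 to 3.24. Krt14, a keratin of basal keratinocytes, lay at −1.39, −1.67, −2.10 and −0.78 and so stood in the same order as Cldn3 and Dsp, 1.33 higher with 4OHT in OSKA cells. Krt5, its usual partner, and Krt15 were measured in AKT-activated cells only, at least 1.75-fold and 1.67-fold above AKT-nonactivated cells. Of the other markers, Trp63 was −0.08 and Krt10 0.08 with 4OHT in OSKA cells. Lor, the gene of loricrin, was 1.47-fold lower there against its own dim value. The median of the 3 measured on both OSKA arrays was 0.08. Ivl and Krt1 were not well above background on any array. The part of such cells in the values of Cldn3, Cldn7, Dsp and Dsc2 was not tested. All 5 blood cell markers on the arrays were measured throughout, with summed levels of 6.77, 7.37, 7.35 and 7.16, lowest in OSK cells on vehicle. All 5 were higher with 4OHT in OSK cells (median 0.60) and lower with 4OHT in OSKA cells (median −0.17), opposite in sign to Cldn3, Cldn7 and Dsp, and their part was not tested. Of 7 endothelial markers 4 were measured on each array, of 10 pluripotency markers 7, and of 6 extraembryonic endoderm markers 1 to 3. The summed level of the pluripotency list, in which Tdh (3.23, 3.01, 2.23 and 1.21) weighs most, was 3.72, 3.54, 2.90 and 2.36 in OSK cells on vehicle, OSK cells on 4OHT, AKT-nonactivated and AKT-activated cells, and that of the endothelial list lay between 3.07 and 3.64. With 4OHT in OSKA cells 3 of the 7 measured pluripotency markers were higher (Dppa5a 0.53, Dppa3 0.37 and Fgf4 0.16) and 4 lower, with a median of −0.19.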

How the data were processed

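Gene expression was measured on 4 single-channel (Cy3) Agilent arrays, 1 per group, from 100 ng of total RNA each. The deposited files hold a background-subtracted, spatially detrended intensity per spot from Agilent Feature Extraction 10.7.3.1 (version from the submitters' processing notes), not normalized between arrays. The authors' series matrix repeats this intensity in rounded form (ratio to the scanner value 0.995 to 1.005). Sample titles gave the groups. The free-text note for the OSKA array with 4OHT reads as if AKT-MER had not been activated, which contradicts its title.

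Per array, log2 intensity was reduced by the 75th percentile of its spots, leaving out controls and 104 to 155 spots marked as uneven or outlying (0 spots were saturated). Repeat spots were averaged, and a probe was taken as well above background if most of its spots were so marked. The brightest probe stood for a gene. Of all probes, 27505 (49.4%) took their name from a GRCm38.p6 table by RefSeq accession, which changed 2186 names. Differences were taken where both arrays were well above background. With 1 dim array, the bright level was compared with the dim array's own value or its lowest level well above background, whichever was greater. The result was counted as a bound and written as "at least N-fold". Where the dim array's own value was used, as for Jup and Lor, the fold is not a lower bound and is written without "at least". Genes were counted at 2-fold, by difference or bound, over all genes. With 1 array per group no test was run, and precision is limited by the number of arrays. The median software error of a difference was 0.21 (log2). All arrays were on 1 slide, so array position and group cannot be told apart.

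The named genes were all members with all probes, list genes at least 2-fold different in the 4OHT effect in OSKA cells (up to 5 per list) or in another comparison (up to 2 per list), the 3 genes nearest in pattern to each member measured on all arrays with a range of at least 1 (log2), and cell type markers. Other list genes named for their role or value (Cldn1, Cldn11, Cldn15, Cldn20, Tjp1, Lsr, Marveld2, Perp, Pkp1, Pkp3, Pkp4, Ppl, Krt18, Dsg1c, Dsg3, Dsc1, Dsc3 and Epcam) were chosen after their values were seen. Members, lists and comparisons were chosen with earlier results of these data known. Promoter stretches are from RefSeq (GRCm38.p6), and probe coordinates are those of the array files (NCBI37). Alternatives were normexp background correction (limma 3.58.1 in R 4.3.3, offset 50), quantile normalization, both together, median and spike-in scaling, no filter on dim probes, a filter on all 4 arrays, bounds not counted, the mean of all probes, the series matrix, and thresholds of 1.5-fold and 3-fold. The calculation (Python 3.11.15, pandas 2.3.3) was tested on simulated data.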

Additional observations from a re-analysis of the deposited data

Results flagged for a closer look

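The 4OHT difference had opposite signs in OSK and OSKA cells, each larger than 2 software errors, for 2 members. For Cldn3 it was −0.43 in OSK cells and 1.52 in OSKA cells, which differ by 1.95 (log2). For Dsp it was −0.69 and 1.35, which differ by 2.04. With normexp correction the values in OSK cells were −0.35 for Cldn3 and −0.36 for Dsp, both under 2 software errors. With 1 array per group, the difference between the effects was not tested.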

How the results depend on the processing

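No paired analysis was possible because each group had 1 array. Of the values for single members, 200 moved by less than their error and 32 by more. Many of the 200 could not move. Bounds not counted, the filter on all 4 arrays and no filter on dim probes leave each measured difference as it was. The mean of all probes does so for Cldn3, Jup and Pkp2, which have 1 probe each. The 200 are thus no measure of robustness. None of the called differences changed sign. With normexp correction, alone or with quantile normalization, 1 member was at least 2-fold higher with 4OHT in OSKA cells (Cldn3; 0.832% and 0.823% of all genes), 0 were 2-fold lower for AKT-MER without 4OHT (66 and 67 of 22000 genes) or with 4OHT (0.363% under both), and the medians were 0.44 for 4OHT in OSKA cells under both and 0.45 and 0.48 for AKT-MER with 4OHT. Scaling on the spike-ins shifted the median of all genes by −0.31, 0.01, −0.44 and −0.12 for 4OHT in OSK, 4OHT in OSKA, AKT-MER without 4OHT and AKT-MER with 4OHT. Under it 1 member (Dsp) was 2-fold lower with 4OHT in OSK cells (2.16% of all genes), and the medians were −0.60 there and −0.96 for AKT-MER without 4OHT. It also put Dsp highest in OSK cells on vehicle and left Cldn7 there about level with AKT-activated cells. With no filter on dim probes, 3 members (with Dsc2) were 2-fold higher with 4OHT in OSKA cells (5.40% of all genes) and 1 (Dsc2) for AKT-MER with 4OHT (4.90%), where the median was 0.26. With the filter on all 4 arrays the median was 1.01 for 4OHT in OSKA cells, and 0 members were 2-fold lower for AKT-MER with 4OHT (1.08% of all genes), as with bounds not counted (1.12%). With the mean of all probes, 3 members were above background on each array, and Dsp had no value. The 2 members higher with 4OHT in OSKA cells were then Cldn3 and Dsc2 (3.16% of all genes), 1 was 2-fold lower for AKT-MER without 4OHT (2.22%), and for AKT-MER with 4OHT 1 was higher (3.01%) and the median was 0.28. At 1.5-fold, 1 of 6 members was lower with 4OHT in OSK cells (3.09% of all genes), 4 of 7 were higher (6.77%) and 1 lower (6.14%) with 4OHT in OSKA cells, and 4 of 7 were higher for AKT-MER with 4OHT (6.95%). At 3-fold, 0 were higher with 4OHT in OSKA cells (0.996%) and 0 lower for AKT-MER without (0.573%) or with 4OHT (0.442%). The members were selected with differences of this kind known, so nothing is read from these counts. Signals near background limit the values of Cldn4, Jup and Dsc2, and those of Cldn6, Ocln and Dsg2 have no order.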
